A study of Mus musculus with 6 samples.

Results

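The 8 genes described here, H2-K1, H2-D1, H2-Q4, H2-Q6, H2-Q7, H2-T22, H2-T23 and H2-M3, encode heavy chains of mouse MHC class I molecules. They were taken by symbol, 8 of the 26814 gene symbols in a table of RNA-Seq counts from mouse lip. All 8 had a row and all 8 were expressed highly enough to be tested, with at least 1 CPM (the count scaled to the size of the library) in each of the 6 libraries. RNA came from the top lip of 3 Gtf2ird1 knockout mice (KO) of the targeted allele Gtf2ird1tm1Hrd and 3 wild type mice (WT), with 1 mRNA library per mouse. Every mouse was an adult female, 2 to 6 months old, on a C57BL/6J background, which carries the b haplotype of the H2 complex. The RNA is that of the whole dissected lip, with all its cell types. The libraries were read as pairs of 100 bases, and the RNA integrity numbers of all samples lay between 9 and 9.5.

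Class I molecules are heavy chains that pair with the light chain beta-2-microglobulin and carry a short peptide to the cell surface. The classical molecules H2-K and H2-D are made by nearly all nucleated cells and show peptides from inside the cell to CD8 T cells. The non-classical Q, T and M genes lie further along chromosome 17, vary less between strains and have narrower or more specialised roles. Proteasomes cut the peptides, the TAP transporter moves them into the endoplasmic reticulum, a loading complex fits them to the heavy chain, and interferons raise the transcription of nearly every step through STAT and IRF factors and the transactivator NLRC5.

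Total counts ranged from 20164081 to 29491767 per library. The count of the targeted gene does not settle the labels, since it was higher under the KO label and not lower. Gtf2ird1 had 78.2, 70.2 and 70.7 CPM under the WT label and 166, 162 and 144 CPM under the KO label. The difference is a log2 fold change of 1.11 (standard error 0.13, adjusted p = 0.0018). A count over the whole gene cannot show which of its exons were read or whether the RNA gives a working protein. The higher count therefore does not show that the labels are wrong. Directions below are those of the labels, and KO means the libraries labelled KO. On the leading axis of a multidimensional scaling plot of the top 500 genes, the 3 WT libraries lay between -1.66 and -1.54, KO1 and KO2 at 1.84 and 1.82, and KO3 apart from these at 1.14. Without KO3, 16.9% of all tested genes were called higher and 16.2% lower, and for the gene lists below the counts of calls without it are given where they differ. Expression was compared with edgeR's quasi-likelihood test after TMM normalisation, and p-values were adjusted over all 15009 tested genes by the method of Benjamini and Hochberg, with calls at an adjusted p under 0.05. No source says whether mice were handled in separate batches or litters. With 1 library per mouse, the spread between libraries joins that between mice with that of handling and preparation, and these cannot be told apart.

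The genes lie in 1 stretch of chromosome 17, from H2-K1 (GRCm38, chr17:33996017-34000347, minus strand) to H2-M3 (chr17:37270220-37274484, plus strand). H2-D1 (chr17:35262730-35267499), H2-Q4 (chr17:35379617-35385290), H2-Q6 (chr17:35424850-35430055) and H2-Q7 (chr17:35439155-35443773) are on the plus strand between them. H2-T23 (chr17:36029773-36032855) and H2-T22 (chr17:36037128-36042747) are on the minus strand. What the promoters of the 8 genes share is shown first, because the expression differences below concern genes known to be induced by interferon. The lines give 30 bases before the transcription start of each gene (RefSeq, GRCm38.p6), written 5' to 3' along the gene, with the match to an interferon-response motif in capitals.
H2-K1: atctccacagTTTCACTTCtgcacctaacc
H2-D1: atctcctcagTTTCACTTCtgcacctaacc
H2-Q4: atctccccagTTTCACTTCtgctcctaact
H2-Q6: atctccccagTTTCACTTCtgctcctaacc
H2-Q7: atctccccagTTTCACTTCtgctcctaacc
H2-M3: tcctctgaggTTTCACTTCtctgtaactct
H2-T22: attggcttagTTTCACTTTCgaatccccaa
H2-T23: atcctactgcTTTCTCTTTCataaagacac
The stretches are chr17:34000418-34000447 for H2-K1, chr17:35262934-35262963 for H2-D1, chr17:35379454-35379483 for H2-Q4 and chr17:35424688-35424717 for H2-Q6. They are chr17:35439032-35439061 for H2-Q7, chr17:37270123-37270152 for H2-M3, chr17:36042914-36042943 for H2-T22 and chr17:36032806-36032835 for H2-T23.

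The capitals are read on the opposite strand. In the first 6 genes they match GAANNGAAA, a short form of the site bound by IRF factors, and in H2-T22 and H2-T23 they match GAAANNGAAA, the core of the interferon-stimulated response element (ISRE), in which the repeat is 1 base longer. Both strands of the 300 bases from 250 before to 50 after each start were searched. The shorter motif occurred in 6 of the 8 promoters and in 7.52% of the 32851 RefSeq promoters of the same length, and the ISRE core in 2 of 8 and in 3.44%. Together, a match to either was found in all 8 genes and in 3403 of the 32851 promoters. The motifs were chosen with these sequences in view, and many of the 8 genes are near copies of each other. These counts therefore describe the promoters and test nothing. The first base of the match lay from 90 bases (H2-K1, the nearer of 2 listed starts) to 191 bases (H2-T22) before the start. The 30-base stretches of H2-Q6 and H2-Q7 are identical letter for letter.

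The promoters of H2-K1 and H2-Q7 are shown at greater length, since the 2 genes differ in level and in the size of their difference between genotypes and yet share this arrangement. These are the 200 bases before the start, at chr17:34000348-34000547 on the minus strand for H2-K1 and chr17:35438955-35439154 on the plus strand for H2-Q7. Capitals mark matches to GGGGANNCCC, a form of the kappa-B site, and to GAANNGAAA.
H2-K1: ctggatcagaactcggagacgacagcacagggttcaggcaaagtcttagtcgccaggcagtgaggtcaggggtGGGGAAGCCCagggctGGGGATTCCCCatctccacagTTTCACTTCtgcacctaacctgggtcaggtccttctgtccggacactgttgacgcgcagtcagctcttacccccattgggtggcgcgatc
H2-Q7: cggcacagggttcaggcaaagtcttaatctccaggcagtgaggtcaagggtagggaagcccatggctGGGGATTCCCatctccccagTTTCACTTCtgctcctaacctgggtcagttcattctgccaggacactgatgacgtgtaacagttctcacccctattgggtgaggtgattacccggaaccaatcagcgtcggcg
A match to these kappa-B letters was present in H2-K1, H2-D1, H2-Q6 and H2-Q7, 4 of the 8, against 1.65% of all promoters. The match began 21 bases before the IRF match in H2-K1, H2-D1 and H2-Q6 and 20 bases before it in H2-Q7. H2-Q4 has a similar stretch before its IRF match, spaced differently, so the search does not show that H2-Q4 lacks such a site. The letters TGACG, part of the site for CREB and ATF factors, were in 6 of the 8 and in 20.8% of all promoters. These motifs were settled after the sequences had been read. A match describes the letters and does not show that a factor bound there in the lip.

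Of the 8 heavy chain genes, 5 were higher in KO (H2-K1, H2-Q4, H2-Q6, H2-Q7 and H2-T22) and 0 lower. Over all tested genes, 4.38% were called higher and 2.09% lower. By edgeR's exact test, 6 of the 8 were higher, beside 7.76% of all genes, and by DESeq2 6 of the 8, beside 8.93%, with H2-D1 added by each. Without KO3 the same 6 were higher, beside 16.9% of all genes. All 8 log2 fold changes were positive, with a median of 1.14, beside a median of -0.02 over the 15009 tested genes. In 6 of the 8, every KO library lay above every WT library, a pattern seen in 13.5% of tested genes. In bulk tissue, more cells of a kind that expresses a gene and more RNA of it per cell cannot be told apart.

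**Figure D1:**
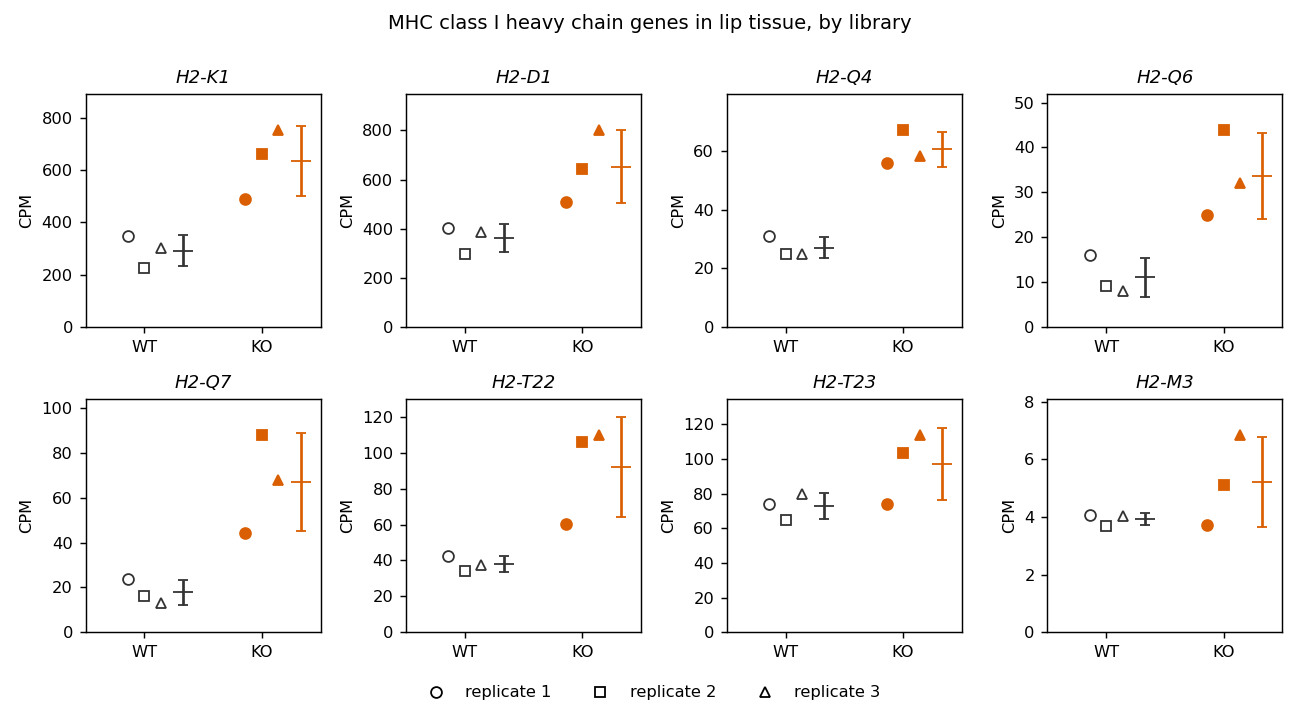
Normalised expression of the 8 class I heavy chain genes in each library, in CPM on linear axes that start at 0; open symbols are WT and filled symbols KO, with the replicate given by shape, and the bar beside each group is the mean ± SD of 3 mice. All KO points lie above all WT points for H2-K1, H2-D1, H2-Q4, H2-Q6, H2-Q7 and H2-T22, and the groups overlap for H2-T23 and H2-M3.

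H2-K1 encodes the classical molecule H2-K and was 1 of the 2 most abundant heavy chains. It was at 347, 227 and 300.5 CPM in the WT libraries and at 491, 659.8 and 755 CPM in the KO libraries. The lowest KO mouse was therefore well above the highest WT mouse, although the KO mice spread widely. The means were 292 ± 60.3 and 635 ± 133 CPM (SD, n = 3 mice per genotype), a log2 fold change of 1.12 (standard error 0.22, 95% interval 0.62 to 1.62, adjusted p = 0.0241). The call held in all 9 other processing settings but was lost when WT1 (adjusted p = 0.0548), WT2 (0.064), WT3 (0.096) or KO2 (0.0962) was left out.

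H2-D1 encodes the other classical molecule, H2-D. Its values were 404, 296 and 388 CPM in WT and 508, 645 and 803 CPM in KO, so that the groups did not overlap here either. The means of 363 ± 58.3 and 652 ± 148 CPM gave a log2 fold change of 0.85 (standard error 0.21, 95% interval 0.37 to 1.32) with an adjusted p of 0.052, just short of the threshold. H2-D1 passed it in 4 of 9 other processing settings, at an adjusted p of 0.00636 by edgeR's exact test and 0.00262 by DESeq2, and also when KO1 (0.0362) or KO3 (0.0228) was left out. Without KO3, the log2 fold changes were 0.99 for H2-K1 and 0.67 for H2-D1.

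The ratio of the classical pair did not overlap between the groups. For every count on H2-D1 there were 0.858, 0.768 and 0.775 counts on H2-K1 in WT and 0.967, 1.02 and 0.940 in KO. The 3 KO ratios lie above the 3 WT ratios. An exact permutation test of 3 against 3 libraries cannot give a two-sided p below 0.1, so by that test the difference of the ratios cannot pass a threshold of 0.05. Together H2-K1 and H2-D1 took between 75.9% and 80.4% of the counts of the 8 genes in each library, and the ranges of the genotypes overlapped.

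All 3 Q genes were called, and H2-Q7 and H2-Q6 had the largest fold changes of the 8. H2-Q4 encodes the non-classical molecule Qb-1. It had 31.1, 25.0 and 25.1 CPM in WT and 56.1, 67.4 and 58.5 CPM in KO, with little spread in either group. The means were 27.1 ± 3.52 and 60.7 ± 5.96 CPM (log2 fold change 1.16, standard error 0.15, 95% interval 0.82 to 1.51, adjusted p = 0.00331). H2-Q4 was the only 1 of the 8 genes that stayed called whichever library was left out, with adjusted p-values from 0.00125 to 0.0281, and it was called in all 9 other settings. It overlaps Gm11131 on the opposite strand over 496 bases of exon. That row held 0.743 ± 0.349 CPM in WT and 1.69 ± 0.248 CPM in KO, a small fraction of the counts of H2-Q4. Gm11131 was tested (adjusted p = 0.0927) only because of its level in KO.

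H2-Q7 and H2-Q6 encode Qa-2 molecules, which can be anchored to the membrane by a lipid or released from the cell. H2-Q7 stood at 23.7, 16.2 and 13.2 CPM in WT and at 44.4, 88.1 and 68.1 CPM in KO. It had the largest fold change of the 8, from a mean of 17.7 ± 5.44 to 66.9 ± 21.9 CPM (3.78-fold; log2 fold change 1.92, standard error 0.30, 95% interval 1.23 to 2.60, adjusted p = 0.00907). Leaving out WT2 took its adjusted p to 0.0516, and the call held without any of the other libraries.

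H2-Q6 followed the same order of libraries within KO as H2-Q7. Its values were 16.1, 9.10 and 8.01 CPM in WT and 25.0, 44.0 and 32.0 CPM in KO, and the groups did not overlap. The means were 11.1 ± 4.38 and 33.7 ± 9.62 CPM (3.04-fold; log2 fold change 1.60, standard error 0.31, 95% interval 0.89 to 2.32, adjusted p = 0.0241). The call was lost without WT2 (adjusted p = 0.0775), WT3 (0.0936) or KO2 (0.101). As a share of the counts of the 8 genes, the Q genes made up 7.53%, 7.45% and 5.40% in the WT libraries and 9.94%, 11.6% and 8.14% in the KO libraries, again without overlap.

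Of the T genes, which lie next to each other, H2-T22 was called and H2-T23 was not, and the difference between them was not tested. H2-T22 encodes a molecule that carries no peptide and is bound by some gamma delta T cell receptors. It was at 42.5, 34.0 and 37.4 CPM in WT and 60.3, 106 and 110.2 CPM in KO, where KO1 was far below KO2 and KO3. The means were 38.0 ± 4.29 and 92.1 ± 27.7 CPM (log2 fold change 1.28, standard error 0.23, 95% interval 0.74 to 1.82, adjusted p = 0.0189). The adjusted p passed the threshold without KO1 (0.00162) or KO3 (0.00527) and missed it without WT1 (0.0721), WT2 (0.0683), WT3 (0.0855) or KO2 (0.0889). H2-T22 overlaps A930015D03Rik on the opposite strand over 1003 bases of exon. A930015D03Rik had no row in the count table, and whether its reads were counted on H2-T22 was not tested.

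H2-T23 encodes Qa-1, which presents the leader peptides of other class I heavy chains to the CD94/NKG2 receptors of natural killer cells. It was at 74.3, 64.6 and 79.6 CPM in WT and at 73.8, 104 and 114 CPM in KO. KO1 lay within the WT range and the other KO libraries lay above it. The means of 72.8 ± 7.61 and 97.2 ± 20.9 CPM differed by a log2 fold change of 0.42 (standard error 0.18, 95% interval -0.004 to 0.84, adjusted p = 0.172), which was not called in any of the 9 other settings or with any library left out. For every 100 counts on H2-K1, H2-T23 had 21.4, 28.4 and 26.5 in WT and 15.0, 15.7 and 15.1 in KO.

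H2-M3 encodes a molecule that presents peptides beginning with N-formylmethionine, as bacterial and mitochondrial proteins do. It was the least abundant of the 8, at 4.06, 3.70 and 4.05 CPM in WT and 3.74, 5.10 and 6.86 CPM in KO. KO1 was again within the WT range, while KO2 and KO3 were above it. The difference (log2 fold change 0.41, standard error 0.24, 95% interval -0.15 to 0.97, adjusted p = 0.288) was not called under any alternative. The upper end of this interval is above the log2 fold change of H2-D1. Without KO3, the library that lay apart, the log2 fold changes were 1.20 for H2-Q4, 1.64 for H2-Q6, 1.91 for H2-Q7, 1.14 for H2-T22, 0.29 for H2-T23 and 0.18 for H2-M3, so that the estimate for H2-M3 fell the most in proportion.

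Per length of exon, the order of the genes was the same in both genotypes. In WT, mean levels in RPKM (CPM per kilobase of exon) were 141 for H2-D1 and 99.2 for H2-K1, whose libraries overlapped. H2-T23 followed at 25.2 RPKM, H2-T22 at 11.1, H2-Q4 at 10.43, H2-Q6 at 5.30, H2-Q7 at 4.15 and H2-M3 at 2.74. Among these, H2-T22 and H2-Q4 overlapped, as did H2-Q6 and H2-Q7, while the other neighbours did not. In KO, the levels were 253 RPKM for H2-D1, 216 for H2-K1, 33.6 for H2-T23, 27.0 for H2-T22, 23.4 for H2-Q4, 16.1 for H2-Q6, 15.7 for H2-Q7 and 3.64 for H2-M3. There, H2-T23 and H2-T22 overlapped as well, and H2-Q6 and H2-Q7 differed by far less than their spread.

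Within KO the mice were not alike. KO1 had the lowest KO value for all 8 genes. KO2 was highest for H2-Q4, H2-Q6 and H2-Q7, and KO3 for the other 5. Within WT, WT1 was highest for 7 of the 8 and WT2 lowest for 6. Over the 6 libraries, Pearson's r between pairs of the 8 genes on the log2 CPM scale ran from 0.604 (H2-Q4 and H2-M3) to 0.992 (H2-Q6 and H2-Q7), with a median of 0.920 over 28 pairs. These values share their libraries and the difference between genotypes, so they describe the pairs and test nothing.

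Class I genes are near copies of each other, and a read that fits several of them is not counted. To show how much of each gene this touches, every 100-base window of its annotated transcripts (GENCODE M21) was looked up in the transcripts of all other genes. Windows found elsewhere letter for letter made up 0.957% for H2-K1, 3.59% for H2-D1, 2.16% for H2-Q4, 10.8% for H2-Q6, 12.0% for H2-Q7, 3.15% for H2-T23 and 8.86% for H2-T22. With up to 2 mismatches, the share rose to 41.9% for H2-Q6 and 54.4% for H2-T22, and it stayed at 6.32% for H2-K1. H2-M3 shared 0 windows at either limit. Some further class I genes, among them H2-Q3, H2-Q8, H2-Q9 and H2-T9, had no row in the count table. Whether reads of those genes fell on the rows of the 8 was not tested.

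**Figure D2:**
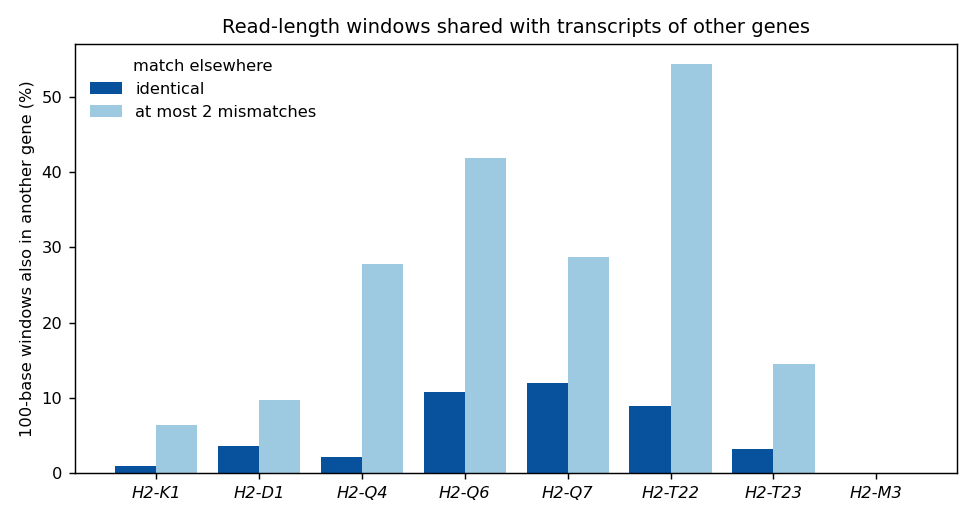
Share of the 100-base windows in the transcripts of each gene, in percent on an axis from 0, that occur in a transcript of another gene, identically (dark bars) or with at most 2 mismatches (light bars). H2-T22 reaches 54.4% and H2-Q6 41.9% with mismatches allowed, while H2-K1 reaches 6.32% and H2-M3 has none.

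For H2-T22 the partner is mainly H2-T10, which matched 50.7% of its windows with up to 2 mismatches. Adding the rows of H2-T22 and H2-T10 gave 44.8, 35.9 and 39.0 CPM in WT and 67.9, 120.2 and 121 CPM in KO, so the sum of the pair separated the genotypes as H2-T22 alone did. Summed over H2-Q4, H2-Q5, H2-Q6, H2-Q7 and H2-Q10, the Q region gave 77.6, 54.7 and 50.4 CPM in WT and 139, 218 and 169 CPM in KO. How unique reads were split between H2-Q6 and H2-Q7, which share 166 identical windows, cannot be read from counts per gene. H2-M3, which shared no window, is not touched by this.

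The count table held 18 further rows with an H2 class I symbol, 26 with the 8 above. Of these 18, 8 were tested, and the other 10 had at most 11 counts in any library. Leaving aside H2-M10.4, which was tested only because of its level in KO, 5 of 7 were higher in KO and 0 lower. Over all tested genes, these shares were 4.38% and 2.09%. The median log2 fold change of the 7 was 1.34. H2-T10, the relative of H2-T22, was at 2.25, 1.91 and 1.66 CPM in WT and at 7.57, 14.2 and 10.7 CPM in KO, a log2 fold change of 2.48 (standard error 0.27, adjusted p = 0.0016). It overlaps BC023719 on the opposite strand over 925 bases of exon. BC023719 had no row in the count table, and whether its reads were counted on H2-T10 was not tested. H2-M2 was at 1.56, 1.66 and 1.66 CPM in WT and 5.48, 7.36 and 6.22 CPM in KO, a log2 fold change of 1.97 (standard error 0.21, adjusted p = 0.00116). Both stayed called whichever library was left out.

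H2-Q5 (2.86 to 8.77 CPM, adjusted p = 0.0299), H2-Q10 (2.20 to 5.55 CPM, adjusted p = 0.0251) and H2-M5 (1.69 to 3.12 CPM, adjusted p = 0.0486) were called on all 6 libraries but not with KO2 left out, when their adjusted p-values were 0.12, 0.12 and 0.169. H2-Q5 kept its call without WT1 or KO3, and H2-Q10 and H2-M5 kept theirs without KO3 alone. In the 9 other processing settings H2-Q5 and H2-Q10 were called each time, but H2-M5 in 3. H2-T24 (log2 fold change 0.75, adjusted p = 0.0664) and H2-K2 (0.11, adjusted p = 0.799), a transcribed pseudogene, were not called. H2-T24 passed the threshold by the exact test (0.0338), by DESeq2 (0.014) and without KO3 (0.0267).

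H2-M10.4 (chr17:36458917-36462334, minus strand), of a family known from vomeronasal neurons, was unlike the other rows. It had 0 counts in WT1, WT2 and WT3 and 180, 311 and 65 counts in KO1, KO2 and KO3. Taking 3 counts in each WT library, which is as many as a count of 0 can hide, its mean of 7.47 CPM was at least 60.3-fold higher, and the 2.97 CPM of KO3 alone at least 24.01-fold higher. It entered the test only through the KO libraries (adjusted p = 0.0042) and was not tested when any of them was left out. Its promoter held neither the IRF motif nor the ISRE core. These limits cover counting error only.

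**Figure D3:**
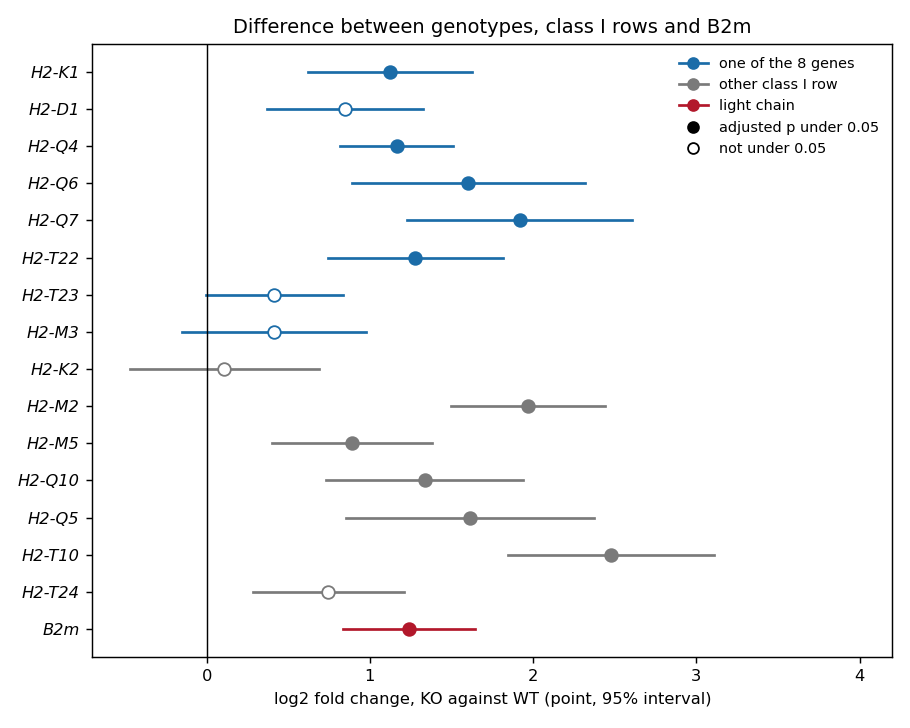
Log2 fold change between KO and WT with its 95% interval from edgeR's quasi-likelihood fit for the 8 heavy chain genes, the other tested class I rows (H2-M10.4, which had 0 counts in WT, is left out) and B2m; filled points have an adjusted p under 0.05. H2-Q7 is the highest of the 8 at 1.92 and H2-T10 the highest of the other rows at 2.48, and the intervals of H2-T23, H2-M3 and H2-K2 reach below 0.

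The light chain rose with the heavy chains. B2m, on chromosome 2, encodes beta-2-microglobulin and was at 268, 212 and 239 CPM in WT and 453, 610.2 and 635 CPM in KO. The lowest KO library was far above the highest WT library. The log2 fold change of B2m was 1.24, with a standard error of 0.18 and an adjusted p of 0.00555, and it was called whichever library was left out, with adjusted p-values up to 0.0405. Its promoter holds the ISRE core, here read along the gene, at chr2:122147538-122147567 in RefSeq's GRCm38.p6, with the match in capitals.
B2m: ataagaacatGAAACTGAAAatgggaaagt
Per length of exon, the 8 heavy chains together amounted to 1.09, 0.992 and 1.12 times the level of B2m in WT and to 0.862, 0.864 and 0.947 times in KO. All 26 class I rows took 0.0955%, 0.0741% and 0.0830% of all counts in the WT libraries and 0.127%, 0.185% and 0.196% in the KO libraries.

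Of the 8 genes for peptide transport, trimming and loading, 2 were higher and 0 lower, beside 4.38% and 2.09% of all genes. Their median log2 fold change was 0.47. Tap1, a subunit of the peptide transporter, went from 39.8 ± 8.09 to 92.3 ± 26.2 CPM (log2 fold change 1.21, adjusted p = 0.0266). Erap1, the aminopeptidase that trims peptides in the endoplasmic reticulum, went from 15.8 ± 3.67 to 39.5 ± 9.83 CPM (log2 fold change 1.32, adjusted p = 0.0184). Tap1 shares 212 bases of exon with Psmb9, and Erap1 834 with Cast, in each case on the opposite strand. Tap1 was called without KO1 or KO3 but not without WT1 (adjusted p = 0.0604), WT2 (0.0755), WT3 (0.11) or KO2 (0.105). Erap1 was called without WT2 or KO3 but not without WT1 (adjusted p = 0.0985), WT3 (0.0891), KO1 (0.0575) or KO2 (0.0932). The partner subunit Tap2 (log2 fold change 0.55, adjusted p = 0.18), the bridging protein tapasin (Tapbp, 0.37, adjusted p = 0.323) and the chaperone calreticulin (Calr, 0.09, adjusted p = 0.801) did not pass the test. Pdia3, a thiol oxidoreductase of the loading complex, had a log2 fold change of 0.50 (adjusted p = 0.059), and Tapbpl was the lowest of the list at -0.11 (adjusted p = 0.627). By DESeq2 and without KO3, 4 of the 8 were higher, beside 8.93% and 16.9% of all genes, with Pdia3 and the chaperone calnexin (Canx) added.

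Interferon replaces some proteasome subunits by others. Of 5 genes for these subunits and the proteasome activator, 1 was called higher, beside 4.38% of all genes. Psmb9 was at 7.39 ± 1.96 CPM in WT and 22.1 ± 9.30 CPM in KO (log2 fold change 1.58, adjusted p = 0.0375), and it was called without KO1 or KO3 but not without WT1 (0.143), WT2 (0.0879), WT3 (0.0891) or KO2 (0.136). Psmb8, a neighbouring gene for another such subunit, had a log2 fold change of 1.10 with an adjusted p of 0.0761. It was called by the exact test (0.00698), by DESeq2 (0.00858) and without KO1 (0.0151) or KO3 (0.0459), so that 2 of the 5 were higher in each of these. Over all genes, 7.76%, 8.93%, 1.98% and 16.9% were higher in these settings, in that order. Psme1, a subunit of the activator, was at 81.0 ± 10.56 and 86.2 ± 16.9 CPM (log2 fold change 0.09, adjusted p = 0.758). The median of the 5 was 0.53.

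Of 11 factors known to regulate class I genes, 3 were higher and 0 lower, beside 4.38% and 2.09% of all genes. Their median log2 fold change was 0.25. Nlrc5, the transactivator of class I genes, was at 16.8, 21.2 and 12.7 CPM in WT and 68.7, 107 and 77.4 CPM in KO. That is a log2 fold change of 2.32 (standard error 0.24, adjusted p = 0.00116), more than that of any of the 8 heavy chain genes, and it was called with each library left out. Nlrc5 overlaps 9330175E14Rik on the opposite strand over 78 bases of exon. That row held 0.629 ± 0.155 CPM in WT and 2.84 ± 1.44 CPM in KO. It was tested only because of its level in KO, so the direction of its difference is not read.

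Irf9 and Stat2, which act together at the ISRE after type I interferon, were both called. Irf9 went from 23.2 ± 3.52 to 83.4 ± 16.6 CPM (log2 fold change 1.84, adjusted p = 0.00119). Stat2 went from 21.5 ± 1.26 to 64.9 ± 24.5 CPM (1.60, adjusted p = 0.0121). Irf9 shares part of an exon with Rnf31 on the same strand. Irf9 was called with each library left out, while Stat2 was not called without WT1 (adjusted p = 0.0721) or WT3 (0.0651). Irf1, which binds the same motif after interferon gamma, was at 11.9 ± 0.900 and 16.4 ± 2.1 CPM (log2 fold change 0.46, adjusted p = 0.109). The kappa-B factor Rela had a log2 fold change of 0.00 (adjusted p = 0.996). Nfkb1, the other kappa-B factor of the list, was not called in the main test. Over the 9 other processing settings its log2 fold changes were 0.38 to 0.45, and DESeq2 alone called it (adjusted p = 0.0469). The factors that hold NLRC5 at the promoter, Rfx5 (0.12, adjusted p = 0.596), Rfxap (-0.08, adjusted p = 0.775) and Rfxank (-0.14, adjusted p = 0.568), were not called.

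**Figure D4:**
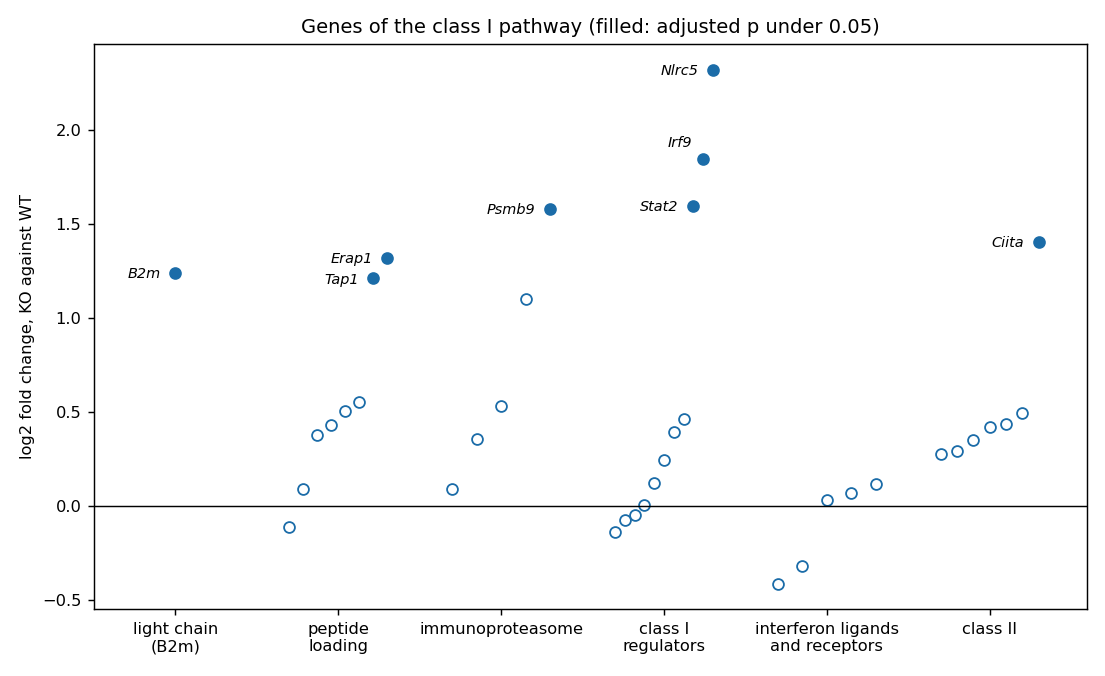
Log2 fold change between KO and WT, 1 point per tested gene, for the light chain and the lists of genes for peptide loading, the immunoproteasome, class I regulation, interferons and their receptors, and class II; filled points have an adjusted p under 0.05 and are named. Nlrc5 is the highest at 2.32, no interferon or receptor gene is called, and Ciita is the only called gene of class II.

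The interferons themselves were hardly measured. Of 12 genes for interferons and their receptors, 9 had a row and 5, all receptor subunits, were tested, with 0 called and log2 fold changes from -0.42 (Ifngr1) to 0.12 (Ifnar1). Without KO3, 1 of the 5 was lower, Ifngr1, beside 16.2% of all genes. Ifng had at most 3 counts in a library. Of the receptors that bind class I molecules, 3 were tested and 0 called. Klrk1, which encodes the activating receptor NKG2D, was tested only because of its level in the KO libraries (0.617, 0.808 and 0.989 CPM in WT and 1.69, 2.50 and 1.05 CPM in KO), so its values are given with no reading of their direction. Its adjusted p was 0.0967, and 0.0389 by the exact test. Class I-like genes outside the H2 complex had 0 of 7 called, from -0.84 for Fcgrt, the neonatal Fc receptor (adjusted p = 0.072), to 0.53 for Mr1, which presents vitamin B metabolites (adjusted p = 0.171). Fcgrt was called lower by the exact test (0.0086) and by DESeq2 (0.0247). Without KO3, Fcgrt and Procr were lower, beside 16.2% of all genes, and Mr1 was higher, beside 16.9%.

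Class II molecules present peptides from outside the cell, and their genes lie in the same complex, between H2-K1 and H2-D1. Of 7 class II genes, 1 was called higher, beside 4.38% of all genes. This was the transactivator Ciita, a relative of Nlrc5 on another chromosome. It was at 8.44 ± 0.926 CPM in WT and 22.3 ± 3.58 CPM in KO (log2 fold change 1.41, adjusted p = 0.0031), and it shares 329 bases of exon with Dexi on the opposite strand. The chains themselves did not pass the test. H2-Aa had 148, 136 and 170.0 CPM in WT and 151, 182 and 274 CPM in KO (log2 fold change 0.42, adjusted p = 0.241), with KO1 inside the WT range. The invariant chain Cd74 had a log2 fold change of 0.28 (adjusted p = 0.527), and the median of the 7 was 0.42. Whether the differences of class I and class II genes are unequal was not tested.

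Most other tested genes of this stretch of chromosome 17 were not called. Between the outer ends of H2-K1 and H2-M3, a stretch of 3.28 Mb, 113 genes were tested, 14 of them rows with an H2 class I symbol. Of the other 99, 4 (4.04%) were higher and 3 (3.03%) lower, beside 4.38% and 2.09% over all genes, and their median log2 fold change was -0.06. The 4 were Psmb9 and Tap1, described above, and the heat shock genes Hspa1a and Hspa1b, and the 3 were Notch4, Vwa7 and Ly6g6d. The heavy chain genes that were called lie in 3 separate clusters of this stretch, K, Q and T, with many uncalled genes between them.

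**Figure D5:**
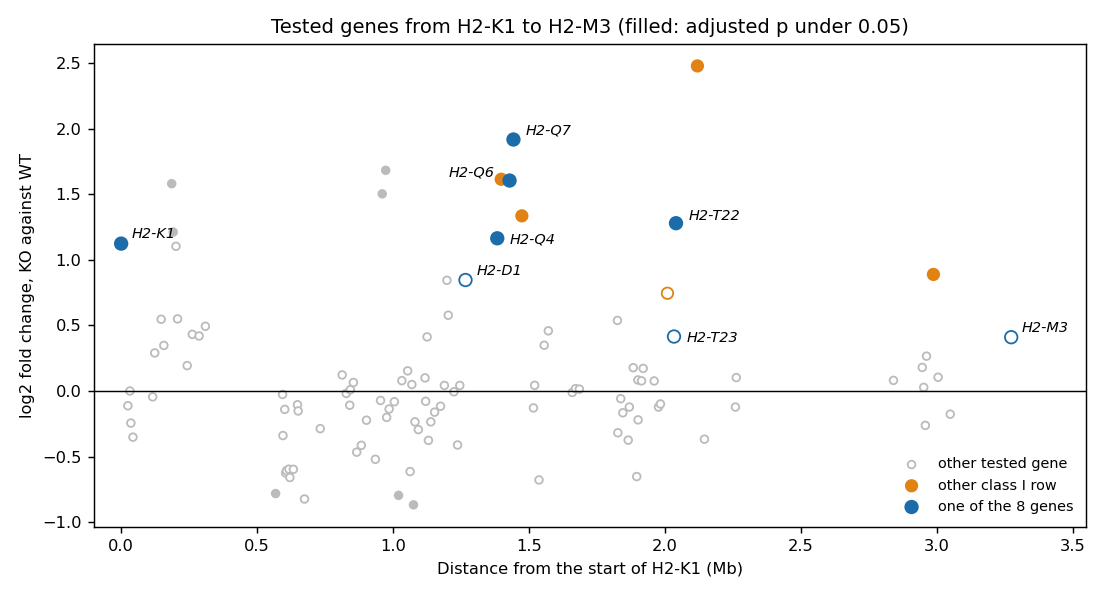
Log2 fold change between KO and WT of every tested gene between H2-K1 and H2-M3 (H2-M10.4 is left out), against the distance of its start from that of H2-K1 in Mb; filled points have an adjusted p under 0.05. The 8 heavy chain genes (blue) all lie above 0, and the other 99 genes, which carry no H2 class I symbol (grey), lie on both sides with a median of -0.06.

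Among the genes outside class I whose levels over the 6 libraries were most like the mean of the 8, by Pearson's r on the log2 CPM scale, were Zbp1 (0.998), B2m (0.992), Arl6 (0.992), Oasl1 (0.991), Etv3 (0.991), Tap1 (0.991), Cxcl10 (0.989), Irf1 (0.987) and Scd2 (0.987). In all, 87 genes had an r above 0.95. With 6 libraries that fall into a WT and a KO group, such values describe the order of the libraries. Cxcl10, a chemokine that attracts T cells, was at 1.02, 0.723 and 0.630 CPM in WT and 5.12, 19.1 and 20.9 CPM in KO. KO1 was the lowest KO library, as for all 8 heavy chain genes. Cxcl10 and Oasl1 were tested only because of their levels in KO, so the direction of their differences is not read. Zbp1, a sensor of Z-form nucleic acids, was at 1.96, 1.28 and 1.39 CPM in WT and 3.43, 7.76 and 7.73 CPM in KO (log2 fold change 2.03, adjusted p = 0.0156). Arl6, a small GTPase of cilia, had an r nearly as high with a log2 fold change of 0.42 (adjusted p = 0.124). Nlrc5 ranked 175th by this measure, with an r of 0.922, and KO2 was its highest library.

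The cells of the lip express class I genes at different levels, so markers of its cell types were read alongside. Those of the labelled tissue were present, with keratinocyte, fibroblast and skeletal muscle genes high in every library. Summed over 6 keratinocyte markers, levels were 23454 to 27430 CPM in WT and 35648 to 48484 CPM in KO, with 0 of 6 called. The exact test and DESeq2 each called 3 of these 6 higher (Dsg3, Krt1 and Krt10), beside 7.76% and 8.93% of all genes. Without KO3, 2 were higher, beside 16.9%. Summed over 6 skeletal muscle markers, they were 7636 to 10470.1 CPM in WT and 3225 to 6398 CPM in KO. Of these 6, 1 was lower, Tnnt3, beside 2.09% of all genes. That call held without KO3 and was lost when any of the other 5 libraries was left out. In all 6 muscle markers, every KO library lay below every WT library, which was so for 18.1% of tested genes. The exact test and DESeq2 each called 5 of the 6 lower, beside 7.15% and 5.31% of all genes, and without KO3 all 6 were lower, beside 16.2%. The 6 fibroblast markers summed to 6355 to 8325 CPM in WT and 2730 to 6660 CPM in KO, with a median log2 fold change of -0.51 and 0 called. Without KO3 the collagen genes Col1a1, Col1a2 and Col3a1 were lower, beside 16.2% of all genes. The 6 endothelial markers summed to 210.0 to 248 CPM in WT and 135 to 239 CPM in KO, with a median of -0.36 and 0 called. Of these, Esam was lower by the exact test and DESeq2, beside 7.15% and 5.31% of all genes, and 4 were lower without KO3, beside 16.2%. Markers shared by leukocytes summed to 110.1 to 136 CPM in WT and 92.0 to 163 CPM in KO (0 of 5 called), and those of macrophages to 163 to 221 and 165 to 208 CPM (0 of 6 called). Those of T cells summed to 12.6 to 18.5 CPM in WT and 16.6 to 28.1 CPM in KO (0 of 6 tested called). DESeq2 called the leukocyte markers Ptprc and Cd52 higher, beside 8.93% of all genes. Without KO3, 1 leukocyte marker was higher (Ptprc) and 1 lower (Laptm5), and 1 macrophage marker was lower (Csf1r). Over all genes, 16.9% were higher and 16.2% lower without KO3. The calls of leukocyte and macrophage markers without KO3 are near these shares and are not read as results about those cells. Natural killer cell markers summed to 0.638 to 1.12 and 0.512 to 1.42 CPM, too little for any of the 7 to be tested, and B cell markers to 1.16 to 1.39 and 0.822 to 1.28 CPM. No marker of these lists was at 0 in all libraries. The summed keratinocyte and muscle levels did not overlap between the genotypes, those of fibroblasts and endothelium did, and their part in the class I differences was not tested.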

How the data were processed

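The authors extracted RNA from top lip tissue with TRI-reagent, mapped paired-end reads to the Ensembl GRCm38 genome with TopHat2 2.0.8 and Bowtie2 2.1.0 at default settings, and deposited the counts of uniquely mapped reads that HTSeq-count gave each annotated gene. The counts are whole numbers without normalization, and 0 columns were left unused. The counting mode and the use of strand are not given in the sources used here, so reads of genes that overlap on opposite strands cannot be told apart.

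The test took genes that reached 1 CPM in 3 or more libraries and was run in R 4.3.3 with edgeR 4.0.16 (TMM factors, glmQLFit with legacy=FALSE and glmQLFTest), with the 3 WT and 3 KO libraries in 1 fit and no covariate. The methods of the study name edgeR's exact test, which was run as an alternative, as were DESeq2 1.42.0, limma-voom (limma 3.58.1), an older quasi-likelihood fit, 2 other scalings, no filter, at least 10 counts in every library, a replicate block, and each library left out in turn. Standard errors and 95% intervals come from the fit. RPKM values divide TMM-normalised CPM by the exon length in GENCODE M21, in which 24858 of the 26814 symbols were found. Likeness used log2(CPM + 0.1). Figures were drawn with Python 3.11.15 and matplotlib 3.10.9.

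The 8 genes and the gene lists were chosen with earlier results of these data known. Genes named singly are Gtf2ird1, the 8 genes, the other class I rows, genes of the lists that were called or lay at the ends of a list, and the 10 genes most like the mean of the 8, save items that are not reported here; the few others, and the motifs, were chosen after their values were seen. The test was tried on simulated counts for the 6 libraries, in which it recovered 50% of 100 genes changed by 1 on the log2 scale and 97% of 100 changed by 2, in a run on 14866 genes. Of its calls, 4.55% were false.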

Additional observations from a re-analysis of the deposited data

How the results depend on the processing

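No fold change of the 8 genes reversed under any alternative. Of the 72 values from the 9 alternatives that kept all libraries, 68 stayed on their side of the threshold and 4, all of H2-D1, became called. Of the 48 values with a library left out, 34 stayed, 12 lost the call and 2 gained it, and between 1 gene (without WT2) and 6 genes (without KO1 or KO3) of the 8 were called. Over all genes, edgeR's exact test called 1165 higher and 1073 lower and DESeq2 1511 and 898, against 657 and 314. DESeq2's size factors left 207 lower, no filter 204 and at least 10 counts in every library 204. With a library left out, from 208 (without KO2) to 2496 (without KO3) were higher and from 18 to 2395 lower. The cause of these shifts was not tested.

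Whether replicate numbers pair the samples cannot be decided from 3 libraries per genotype. Deviations from the group means correlated at -0.19, 0.29 and 0.31 between same-numbered libraries. KO2 and KO3 correlated best with the WT library of their own number, and KO1 with WT2 (0.41). With the replicate block, 580 genes were higher and 217 lower, and the calls of the 8 genes were the same 5. Among the other named genes, Tap1 (adjusted p = 0.0528), H2-M5 (0.0714) and Tnnt3 (0.0573) were no longer called under the block, and Fcgrt (0.0455) became called as lower.

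With 3 mice per genotype, a difference of 1 on the log2 scale is often missed, and the missing calls of H2-T23 and H2-M3 do not show that they were equal. Scaling moved the median of all genes by less than 0.05. Unique counting leaves reads shared by class I copies uncounted, and the share of such reads was not measured.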
